A study of Mus musculus with 4 samples.

Results

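The glucocorticoid receptor gene Nr3c1 and 9 genes known as its targets (Tsc22d3, Fkbp5, Per1, Sgk1, Klf9, Mt1, Mt2, Cebpd and Zbtb16) were examined in mouse mammary tumours. Probes were taken where the array's own gene name was one of these symbols or a former symbol, which gave 9 probes for 8 of the 10 genes, out of 32656 genes measured. Fkbp5 had 2 probes and the other 7 genes had 1 each. The rule found no probe for Mt2 or Zbtb16. An Mt2 probe and second probes of Klf9 and Nr3c1 were matched through their accession, so they are given apart and enter no count of the 8 genes. All 8 genes were well above background in both channels on all 4 arrays.

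All mice were female FVB/N at 26 weeks of age with mammary tumours at stage T1. One group carried MMTV-cdc25a and MMTV-neu (Cdc25a;neu) and the other MMTV-neu alone (neu), so the neu transgene was shared by both. Neu is the rodent form of the receptor tyrosine kinase Erbb2, and Cdc25a is a phosphatase that activates cyclin-dependent kinases. Each group had 2 mice. Each Cdc25a;neu tumour was hybridised against 1 neu tumour on 2-colour Agilent arrays, and each of the 2 mouse pairs was run on 2 arrays with the dyes swapped, giving 4 arrays. In both transgenes the mouse mammary tumour virus promoter (MMTV) drives expression in mammary epithelium, and this promoter itself responds to steroid hormones. The labels used here do not say how the mice were matched into pairs.

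The glucocorticoid receptor is a transcription factor that is held in the cytoplasm by heat shock proteins and immunophilins. When it binds a corticosteroid it enters the nucleus and binds DNA at palindromic response elements, which induces genes such as Tsc22d3, Fkbp5, Per1, Sgk1 and Zbtb16. In the mammary gland glucocorticoids act with prolactin and insulin in differentiation and milk protein synthesis. The MMTV promoter carries glucocorticoid response elements and is a classical model of how the receptor acts on DNA.

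Upstream sequences are shown for genes whose values the results turn on, because they differ in which response elements lie close to the start site. They come from RefSeq (GRCm38.p6) and cover the 250 bases before an annotated start, read 5′ to 3′ on the gene's strand. Capitals mark the match to a glucocorticoid receptor element in Sgk1 (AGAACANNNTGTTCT), Mt1 (the looser form GNACANNNTGTNC) and Tsc22d3 (AGAACA, a single arm of the palindrome). They mark the E-box CACGTG, bound by clock proteins, in Per1, and the metal response element TGCACNC or TGCGCNC in Mt2.
Sgk1, start site 5, chr10:21993640-21993889, plus strand: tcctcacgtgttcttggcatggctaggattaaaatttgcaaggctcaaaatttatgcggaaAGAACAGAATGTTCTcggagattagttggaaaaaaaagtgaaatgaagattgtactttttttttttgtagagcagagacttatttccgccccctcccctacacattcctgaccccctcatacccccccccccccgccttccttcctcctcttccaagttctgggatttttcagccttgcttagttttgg
Tsc22d3, start site 2, chrX:140600523-140600772, minus strand: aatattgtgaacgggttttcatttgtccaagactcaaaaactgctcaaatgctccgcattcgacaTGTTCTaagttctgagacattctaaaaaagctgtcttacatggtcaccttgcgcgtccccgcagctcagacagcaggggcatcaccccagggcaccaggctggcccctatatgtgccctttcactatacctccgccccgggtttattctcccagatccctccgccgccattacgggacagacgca
Per1, start site 1, chr11:69098699-69098948, plus strand: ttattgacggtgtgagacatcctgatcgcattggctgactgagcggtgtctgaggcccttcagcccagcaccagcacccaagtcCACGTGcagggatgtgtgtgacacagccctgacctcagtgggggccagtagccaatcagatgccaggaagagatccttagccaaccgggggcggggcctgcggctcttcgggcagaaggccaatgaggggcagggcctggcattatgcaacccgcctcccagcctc
Mt1, chr8:94178839-94179088, plus strand: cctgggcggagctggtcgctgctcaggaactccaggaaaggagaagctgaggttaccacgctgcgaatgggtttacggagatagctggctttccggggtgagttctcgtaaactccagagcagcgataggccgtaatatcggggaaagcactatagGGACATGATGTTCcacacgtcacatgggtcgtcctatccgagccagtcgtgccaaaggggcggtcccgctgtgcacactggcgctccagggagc
Mt2, chr8:94172368-94172617, plus strand: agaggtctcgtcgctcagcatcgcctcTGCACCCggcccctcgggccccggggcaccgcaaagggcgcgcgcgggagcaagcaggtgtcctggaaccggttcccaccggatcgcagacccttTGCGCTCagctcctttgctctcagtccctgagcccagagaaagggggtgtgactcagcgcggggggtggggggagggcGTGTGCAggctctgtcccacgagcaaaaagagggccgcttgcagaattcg

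RefSeq windows matched 7 of the 10 genes. Both strands were searched, in windows running from 250 bases before to 50 bases after the start. The full palindrome was found in 3 of the 32851 mouse windows, or 0.00913%, and 1 of these was Sgk1 start site 5, with the match 189 to 175 bases before the start. The looser form was found in 0.475% of windows. It matched Mt1, 94 to 82 bases before the start, and the same stretch of Sgk1, where it overlaps the palindrome. The single arm lay in 19.0% of windows, among them Tsc22d3 start site 2 and Sgk1 start sites 1, 4 and 5. At Sgk1 start site 5 both arms of the palindrome count as single arms, and a further one overlaps the E-box. The metal response element lay in 25.7% of windows, with 3 matches in Mt1, where 2 lie after the start, and 4 in Mt2, where 1 does. Per1 start site 2 and Sgk1 start site 6 held 1 match each, after the start in Sgk1. The E-box lay in 7.15% of windows, among them Per1 start site 1, Fkbp5 and Sgk1 start site 5. The window of Klf9 held neither the palindrome, the looser form, the single arm, the metal response element nor the E-box. These matches describe letters in a short window. Binding of the receptor was not measured.

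Values are log2 ratios of Cdc25a;neu over neu, where each pair's value is the mean of its dye-swapped arrays, and the SD is between the 2 pairs. Tumour levels are log2 signals, the mean of both dyes. A level cannot be compared between probes. The genes were chosen by their place in the receptor's pathway with the log2 ratios of this comparison known, so their ratios are given as a description with no test. In limma, the mean over the pairs passed Benjamini-Hochberg adjustment at 0.05 for 0 of 32656 genes (0%), while 3151 (9.65%) had an unadjusted p under 0.05. With n = 2 pairs, failing this test does not show that a gene was unchanged. Of the 8 genes, 3 were lower in Cdc25a;neu in both pairs (Tsc22d3, Per1 and Klf9), 0 were higher in both and 5 went opposite ways, against 28.1%, 31.9% and 40% of all genes. The median log2 ratio of the 8 was -0.38 in pair 1 and -0.15 in pair 2, against 0.01 and 0.00 over all genes. The median of their mean ratios over the pairs was closer to 0, at -0.08, against 0.00 over all genes. The count of 3 became 5 without the pair 1 array that had Cdc25a;neu in Cy3.

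**Figure D1:**
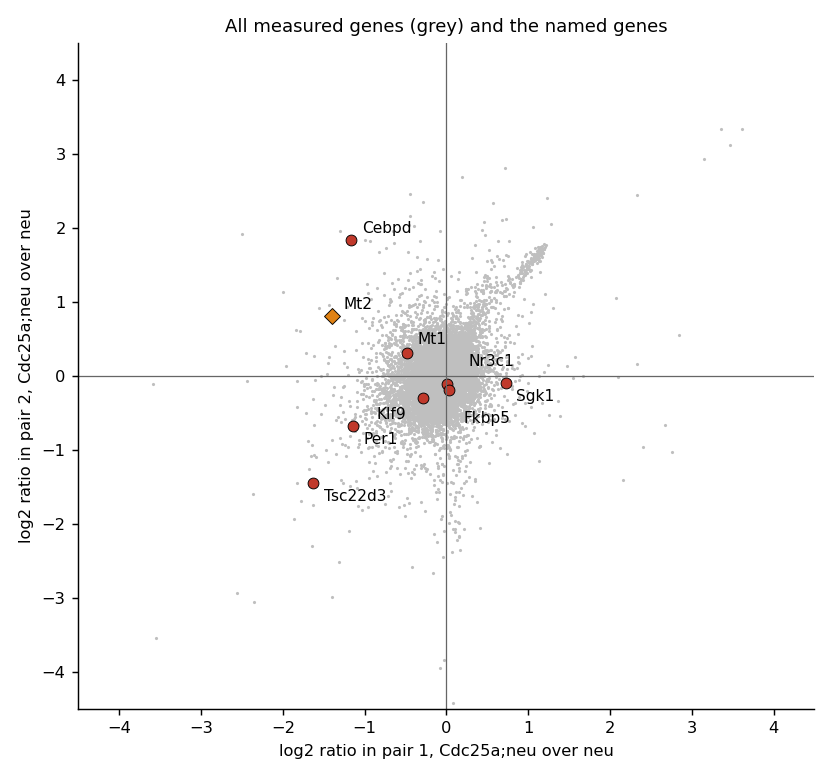
Log2 ratio of Cdc25a;neu over neu in pair 1 (x axis) and pair 2 (y axis) for every measured gene (grey points), the 8 genes (red) and the Mt2 probe matched by accession (orange diamond). Tsc22d3 and Per1 lie low in both pairs, Cebpd and Mt2 lie low in pair 1 and high in pair 2, and Nr3c1 and Fkbp5 lie near 0.

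The receptor itself was at nearly equal levels in both genotypes. Nr3c1 had log2 signals of 8.82 and 9.09 in the Cdc25a;neu tumours and 8.81 and 9.20 in the neu tumours of pairs 1 and 2. By this probe the 2 tumours of pair 2 were higher than those of pair 1, and the genotypes overlapped. Its ratio was 0.00 in pair 1 and -0.11 in pair 2, a mean of -0.05 ± 0.08 (SD, n = 2 pairs). The 4 arrays lay between -0.18 and 0.05. The second Nr3c1 probe, matched by accession, was dimmer and had the pairs in the reverse order, with 6.64 and 6.75 in pair 1 and 6.51 in both tumours of pair 2. It gave ratios of -0.11 and 0.01. Both probes thus lay between -0.11 and 0.01 in each pair. Many genes behave this way, since 15548 genes lay within 0.25 of Nr3c1 on every array. The 5 genes nearest to it by root mean square difference over the 4 arrays were Add3, Pde6h, Alox12b, Plekha1 and Ghitm, at 0.0146 to 0.0191.

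Tsc22d3 was 2.90-fold lower in Cdc25a;neu tumours and had the largest mean ratio in size of the 8 genes. Its product GILZ is a leucine zipper protein that carries out part of the anti-inflammatory action of glucocorticoids. Its log2 signals were 9.17 and 8.73 in the Cdc25a;neu tumours and 10.80 and 10.17 in the neu tumours. The genotypes did not overlap, and the lower neu tumour stood 1.00 above the higher Cdc25a;neu tumour. Tumours of the same genotype differed by less than that, 0.45 between the Cdc25a;neu and 0.63 between the neu tumours. The ratios were -1.63 in pair 1 and -1.44 in pair 2 (mean -1.53 ± 0.13, SD, n = 2 pairs). The pair 1 arrays were at -1.64 and -1.61, those of pair 2 at -1.61 and -1.27. A mean at least 1 log2 unit lower was seen for 76 genes in all, 0.233% of those measured, and in both pairs separately for 0.0888%.

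The profile of Tsc22d3 over the arrays was shared closely by 0 other genes, taking a limit of 0.25 on every array. The 5 nearest named genes were Gdpd3, the ephrin receptor Epha2, the latent TGF-beta binding protein Ltbp2, Scrg1 and the TNF receptor adaptor Traf1, with root mean square differences of 0.226 to 0.271. In pair 2, Gdpd3 and Epha2 were at -1.75 and -1.69, and Ltbp2, Scrg1 and Traf1 at -1.10, -1.09 and -1.08.

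Per1 was 1.87-fold lower in Cdc25a;neu tumours. It encodes a repressor of the circadian clock and is induced directly by glucocorticoids. The Cdc25a;neu tumours were alike at 7.9996 and 8.01, and the neu tumours stood at 9.14 and 8.68. The genotypes did not overlap, with a gap of 0.67, while the 2 neu tumours differed by 0.46. The ratio was -1.14 in pair 1 and -0.67 in pair 2 (mean -0.91 ± 0.33, SD, n = 2 pairs). The arrays of pair 1 gave -1.40 and -0.88, a gap between dyes of 0.53, and those of pair 2 gave -0.59 and -0.76. All 4 arrays were thus lower, with a spread that was wider in pair 1.

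Klf9 was lower by its named probe and equal by another. This Krüppel-like factor is induced by glucocorticoids and by thyroid hormone. By the named probe its levels were 7.499 and 7.38 in the Cdc25a;neu tumours and 7.78 and 7.68 in the neu tumours, which did not overlap. The ratios were -0.28 and -0.30 (mean -0.29 ± 0.01, SD, n = 2 pairs). That SD hides a dye difference, because the arrays with Cdc25a;neu in Cy5 gave -0.49 and -0.50 and those with it in Cy3 gave -0.08 and -0.09. The brighter probe matched by accession stood at 8.37 and 7.95 in the Cdc25a;neu tumours and 8.31 and 8.02 in the neu tumours, with ratios of 0.06 and -0.07. The probes disagree, so the direction of Klf9 is uncertain, and taking the brighter probe left 2 of the 8 genes lower in both pairs.

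Over all genes, tumours that did not overlap with Cdc25a;neu lower were seen for 11.2%, against 3 of the 8 here, and with Cdc25a;neu higher for 8.61%, against 0 here. On all 4 arrays 12.4% of genes were lower.

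Fkbp5, an immunophilin that lowers the receptor's affinity for hormone and is among the most used readouts of glucocorticoid action, stayed close to 0. By the brighter probe it stood at 7.16 and 7.31 in the Cdc25a;neu tumours and 7.12 and 7.51 in the neu tumours, which overlapped. Its ratios were 0.03 and -0.20 (mean -0.08 ± 0.16, SD, n = 2 pairs). The dimmer probe stood at 6.65 and 6.89 against 6.77 and 7.22 and gave -0.12 and -0.33, lower on all 4 arrays (-0.37 to -0.02) with overlapping tumours. Neither probe came near the ratio of Tsc22d3.

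**Figure D2:**
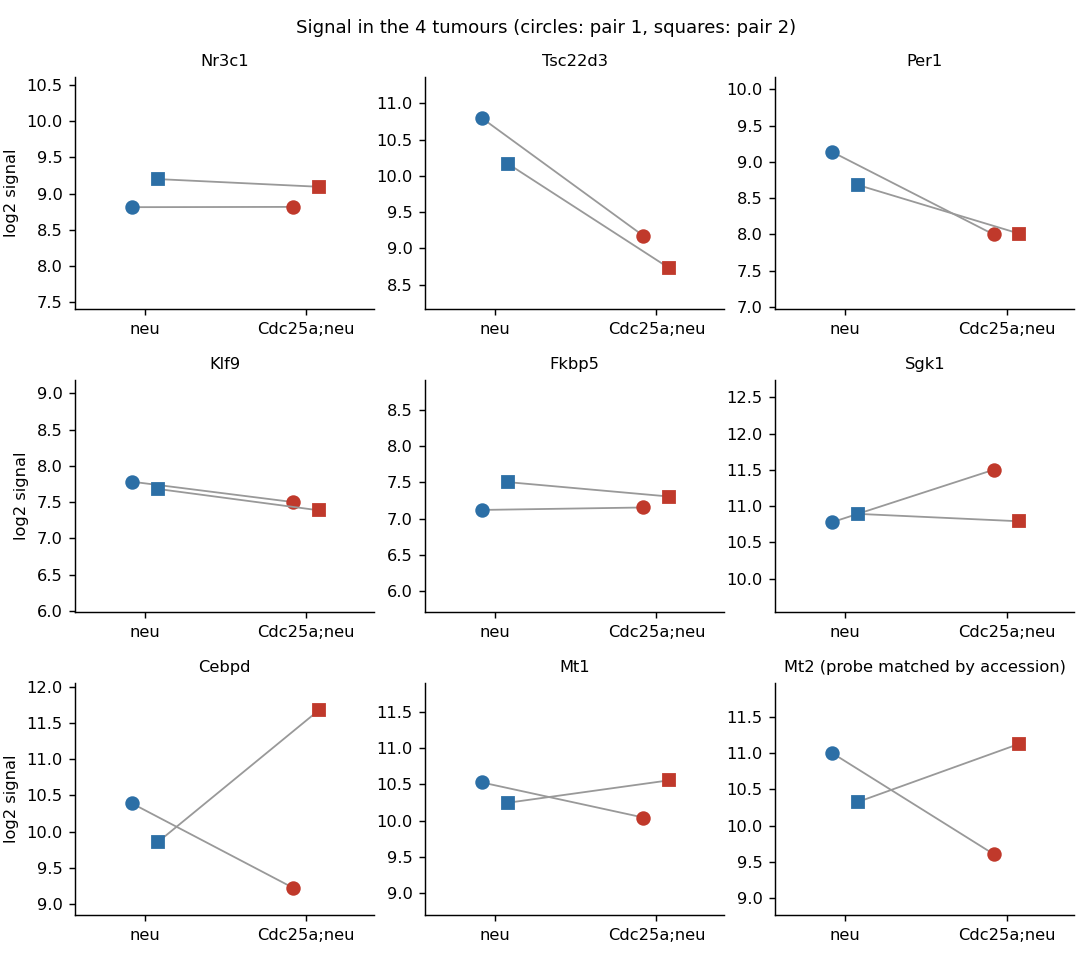
Log2 signal of each gene (y axis, the same span of 3.2 log2 units in every panel) in the neu (blue) and Cdc25a;neu (red) tumour of pair 1 (circles) and pair 2 (squares), with a grey line joining the tumours hybridised together. Lines run down in both pairs for Tsc22d3, Per1 and Klf9. The pairs run in opposite directions for Cebpd, Sgk1, Mt1 and Mt2, and by less for Nr3c1 and Fkbp5.

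For 3 of the 8 genes, Cebpd, Sgk1 and Mt1, both arrays of pair 1 went one way and both arrays of pair 2 the other. Among all genes 13.5% did so. The arrays of a pair carry the same RNA, so their closeness covers hybridisation and dye only and says nothing about mice beyond these 4.

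Cebpd showed the widest split. It encodes a C/EBP transcription factor induced by glucocorticoids and by acute inflammation, and it is prominent in the regressing mammary gland. Its log2 signal was 9.22 in the Cdc25a;neu tumour of pair 1 and 11.68 in that of pair 2, the lowest and the highest of the 4 tumours. The neu tumours lay between them at 10.39 and 9.85. The 2 Cdc25a;neu tumours therefore differed 5.49-fold and the 2 neu tumours 1.45-fold. The ratio was -1.17 in pair 1 (2.25-fold lower) and 1.83 in pair 2 (3.55-fold higher). The pair 1 arrays were at -1.12 and -1.22, those of pair 2 at 1.96 and 1.70. The mean of 0.33 ± 2.12 (SD, n = 2 pairs) describes neither pair. A larger difference between the pairs than that of Cebpd (2.996) was found for 0.0337% of genes, and a difference over 2 for 0.205%.

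The metallothioneins followed the same pattern. Mt1 and Mt2 encode small cysteine-rich proteins that bind zinc and copper and are induced by metals and by glucocorticoids. Mt1 stood at 10.04 and 10.56 in the Cdc25a;neu tumours and 10.53 and 10.25 in the neu tumours. Its ratio was -0.48 in pair 1 and 0.31 in pair 2 (mean -0.09 ± 0.56, SD, n = 2 pairs), with arrays at -0.58, -0.39, 0.38 and 0.24. Mt2, by its accession-matched probe, stood at 9.61 and 11.13 in the Cdc25a;neu tumours and 11.00 and 10.33 in the neu tumours. Its ratio was -1.40 in pair 1 and 0.80 in pair 2 (mean -0.30 ± 1.55, SD, n = 2 pairs). As for Cebpd, the Cdc25a;neu tumours held the lowest and the highest level of Mt2. The same was true of Mt1, narrowly at the top (10.56 against 10.53). A further dim probe described as Mt2 (6.88 to 7.14) gave -0.26 and 0.13. Mt1 and Mt2 are similar in sequence, so their probes may share signal.

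Sgk1 went the other way round. It encodes a kinase that regulates sodium channels and cell survival. Of the genes with windows, it alone held the full palindrome, at start site 5 and at none of its other start sites. The Cdc25a;neu tumour of pair 1 stood at 11.50 and the other 3 tumours between 10.78 and 10.89. The ratio was 0.72 in pair 1 (1.65-fold higher) and -0.10 in pair 2 (mean 0.31 ± 0.58, SD, n = 2 pairs). The pair 1 arrays were at 0.68 and 0.77, those of pair 2 at -0.07 and -0.14. This tumour alone stood apart from the other 3.

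**Figure D3:**
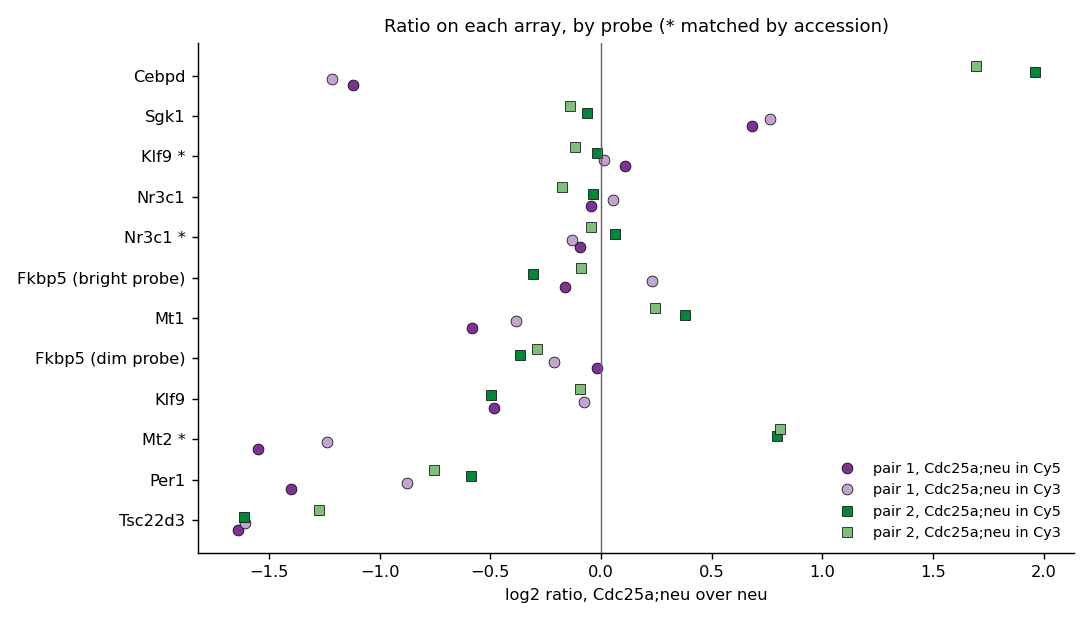
Log2 ratio of Cdc25a;neu over neu (x axis) on each of the 4 arrays for every probe (y axis), with circles for pair 1, squares for pair 2, dark symbols for Cdc25a;neu in Cy5 and light symbols for Cdc25a;neu in Cy3. Tsc22d3 and Per1 lie below 0 on all arrays, and the pairs lie on opposite sides of 0 for Cebpd, Sgk1, Mt1 and Mt2.

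The tumours were placed among cell types with marker lists. The epithelial keratins Krt18 and Krt8 were at 14.30 to 14.61 and 13.79 to 13.97, and the mean of the luminal epithelium list was 10.74 to 10.99 in all 4 tumours. Of its 8 markers, 6 were well above background in both channels on every array. In both pairs 3 (37.5%) were lower and 2 (25%) higher, against 28.1% and 31.9% of all genes. The largest ratios in size on this list were those of Gata3 (0.23 and -1.07) and Epcam (-0.17 and -0.51). Most fat cell markers were lower in Cdc25a;neu. In both pairs 8 of 12 (66.7%) were lower and 2 (16.7%) higher, against 28.1% and 31.9% of all genes. The mean level of the fat cell list was 7.83 and 7.93 in the Cdc25a;neu tumours and 8.61 and 9.16 in the neu tumours. Of the 12, 11 were above background throughout. The largest were Cfd (-3.55 in pair 1 and -3.54 in pair 2) and Fabp4 (-2.36 and -3.06), while the fatty acid transporter gene Cd36 was higher in both pairs (0.88 and 0.57). In bulk tissue, fewer cells of a type and less RNA per cell cannot be told apart. The fat cell markers thus ran in the same direction as Tsc22d3, Per1 and, by its named probe, Klf9. Of the 2 neu tumours, that of pair 2 had the higher fat cell mean and that of pair 1 the higher Tsc22d3 and Per1. The part of fat cells in the ratios of Tsc22d3, Per1 and Klf9 was not tested.

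Most macrophage markers differed in direction between the pairs, and fibroblast markers were mixed. The 7 macrophage markers had mean levels of 8.99 and 9.87 in the Cdc25a;neu tumours and 9.34 and 9.24 in the neu tumours. Of the 7, 5 (71.4%) went opposite ways on both arrays of each pair, against 13.5% of all genes. The macrophage lysozyme Lyz2 stood at -0.45 and 2.03, and the endotoxin co-receptor Cd14 gave -0.58 and 1.06. The mean levels had the order of tumours seen for Cebpd, Mt1 and Mt2, while Aif1 was lower in both pairs (-0.54 and -0.27). The 7 fibroblast markers had mean levels of 7.79 and 9.28 in the Cdc25a;neu tumours against 8.18 and 8.91. Of these, 3 (42.9%) were lower on all 4 arrays, against 12.4% of all genes. The 3 were the matrix proteoglycan genes Dcn (-1.001 and -0.65) and Lum (-0.26 and -0.42) and the growth factor receptor gene Pdgfra (-0.49 and -0.09). The other 4 went opposite ways, with the collagen gene Col1a1 at -0.36 and 1.603. Dcn, Lum and Pdgfra thus ran in the direction of Tsc22d3 and Per1, while the other 4 fibroblast markers did so in pair 1 only. Skeletal muscle markers had a mean level of 8.42 in the neu tumour of pair 2 and 7.07 to 7.09 in the other 3. The part of these cells in the ratios of Tsc22d3, Per1, Cebpd, Mt1, Mt2 and Sgk1 was not tested.

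**Figure D4:**
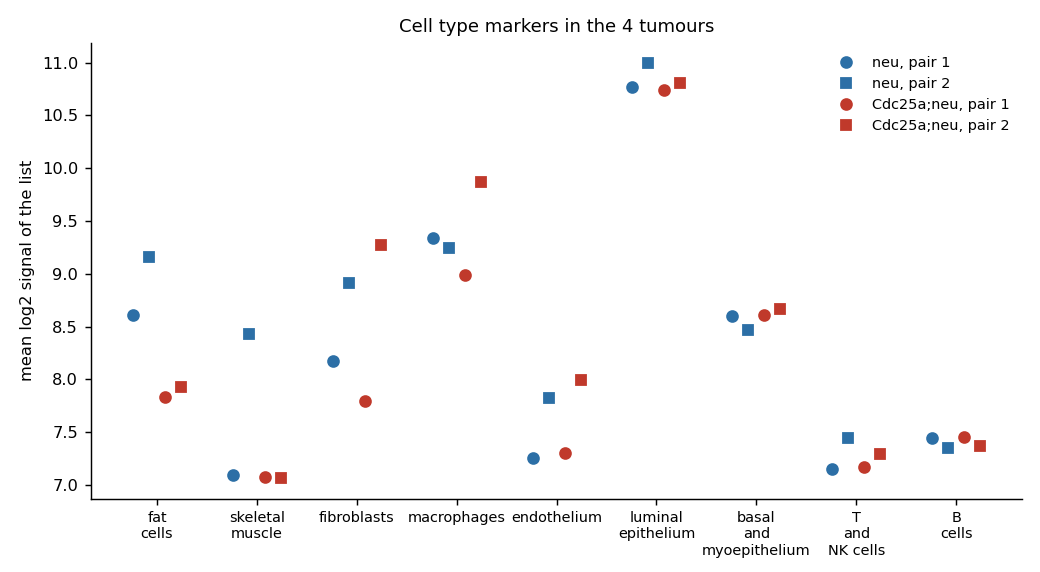
Mean log2 signal of each cell type's marker list (y axis) in the neu (blue) and Cdc25a;neu (red) tumours of pair 1 (circles) and pair 2 (squares). Fat cell markers are lower in both Cdc25a;neu tumours, macrophage markers are highest in the Cdc25a;neu tumour of pair 2, and the luminal list spans 10.74 to 10.99.

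Further genes known to be induced by glucocorticoids were taken as a list of 27, of which 23 were measured. In both pairs 10 of the 23 (43.5%) were lower and 5 (21.7%) higher, against 28.1% and 31.9% of all genes, while 8 went opposite ways. As over all genes, 0 passed the gene test in either direction. On all 4 arrays 7 (30.4%) were lower and 5 (21.7%) higher, against 12.4% and 14.7% of all genes. The list's median was -0.11 in pair 1 and 0.06 in pair 2, so its centre stayed near 0. The list was chosen with some of these values known, which leaves the count as a description.

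The largest of these were lower. Rgs2, which shortens G protein signalling, stood at -0.46 and -1.73, with -0.06 in the mean for another probe. Errfi1, the feedback inhibitor of the ERBB receptors, gave -0.90 and -1.28. The glucose transporter gene Slc2a1 gave -1.30 and -0.83, with a dye difference. Its arrays with Cdc25a;neu in Cy5 gave -0.85 and -0.50, and those with it in Cy3 gave -1.75 and -1.17. Pck1, the gluconeogenic enzyme also made in fat, gave -0.40 and -1.33. Nfkbia, the inhibitor of NF-kappaB, was lower in pair 1 alone at -1.61, with -0.05 in pair 2, and the repressor gene Bcl6 gave -1.19 and -0.35. Singled out after their values were seen, Ddit4 (-1.79 and 0.61) and Gadd45b (-1.22 and 0.93) had the split of Cebpd, while the liver enzyme gene Tat (0.39 and 0.83) was higher in both pairs.

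**Figure D5:**
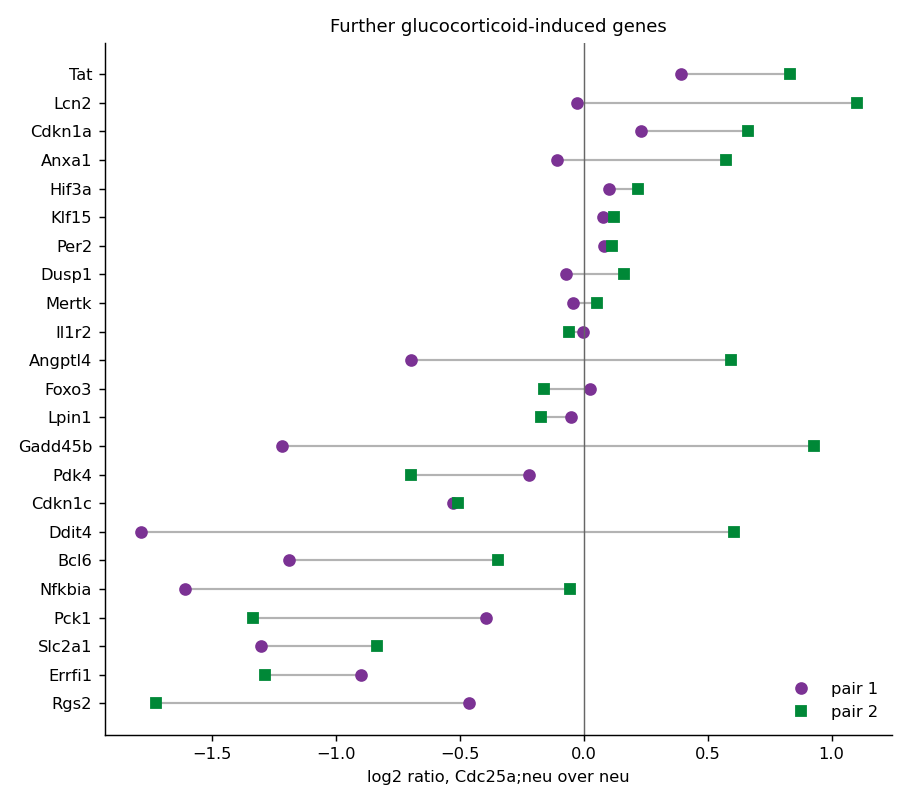
Log2 ratio of Cdc25a;neu over neu (x axis) in pair 1 (purple circles) and pair 2 (green squares) for the 23 measured genes of the further glucocorticoid-induced list (y axis), ordered by mean. Rgs2, Errfi1, Slc2a1, Pck1 and Bcl6 are lower in both pairs, and Ddit4, Gadd45b and Angptl4 lie on both sides of 0.

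The machinery around the receptor showed small ratios apart from a few genes. Over all genes, 28.1% were lower and 31.9% higher in both pairs. Of 14 chaperones and immunophilins, 5 (35.7%) were lower and 2 (14.3%) higher in both pairs, with medians of -0.01 and -0.15. The stress-induced Hspa1a stood at -1.45 and 0.17, and the constitutive Hspa8 at -0.40 and -0.30. Hsp90aa1, which holds the receptor ready for hormone, gave -0.47 and 0.13. Of 11 measured coregulators, 5 (45.5%) were lower and 1 (9.09%) higher in both pairs, with medians of -0.12 and 0.04. The single higher one, Ncoa3, gave 0.92 and 1.39 by one probe and a mean of 0.01 by its other probe. Ncoa2, Med1, Nrip1 and Carm1 had means between -0.20 and 0.06.

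Genes of corticosteroid supply had medians near 0, at -0.01 and -0.07. Of 8 genes, 5 (62.5%) were lower and 1 (12.5%) higher in both pairs, against 28.1% and 31.9% of all genes. Only 5 of the 8 were well above background in both channels on every array, so the count rests partly on dim genes. H6pd, which supplies NADPH to the enzyme that regenerates active corticosteroid, gave ratios of -0.48 and -0.52, but its other probe gave a mean of -0.04. Hsd11b1, that regenerating enzyme, gave -0.09 and -0.59, and Hsd11b2, which inactivates corticosteroid, gave -0.08 and -0.05.

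Inflammatory genes that glucocorticoids repress had medians of -0.01 and 0.00. Of 12 measured, 3 (25%) were lower and 2 (16.7%) higher in both pairs, against 28.1% and 31.9% of all genes. Only 9 of the 12 were well above background in both channels on every array, so these medians rest partly on dim genes. The adhesion molecule gene Vcam1 gave -0.76 and -0.30, with a mean of -0.00 by another probe. The chemokine genes Ccl5 and Ccl2 gave -0.06 and -0.79, and 0.00 and 0.67. Ptgs2, the inducible prostaglandin synthase, gave 0.02 and 0.08, at levels of 5.95 to 6.32.

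Among 15 measured clock genes other than Per1, 7 (46.7%) were lower and 6 (40%) higher in both pairs, against 28.1% and 31.9% of all genes. The list's medians were -0.06 and -0.04. The PAR-domain factor Tef gave -0.89 and -1.08 by its brighter probe, while its other probe gave a mean of 0.11. The cryptochrome genes Cry2 and Cry1 gave -0.40 and -0.65, and -0.17 and -0.79. Another probe of Cry1 gave a mean of -0.07. The PAR-domain genes Hlf and Dbp gave -0.12 and -0.45, and -0.31 and -0.08. The repressor gene Bhlhe41 was higher, at 0.03 and 0.38. The closest relative of Per1 on the list, Per2, gave 0.08 and 0.12, with another probe at a mean of -0.45. The labels do not state the time of day at which tumours were taken.

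For metals, 3 of 10 genes (30%) were lower and 3 (30%) higher in both pairs, against 28.1% and 31.9% of all genes. The list's medians were -0.05 and 0.03. Hmox1, the haem-degrading enzyme induced by oxidative stress and metals, gave -0.65 and 1.79, the split also seen for Mt1 and Mt2. The metal sensor gene Mtf1 gave -0.16 and -0.47, with -0.03 in the mean for another probe. The zinc transporter gene Slc30a4 gave -0.11 and -0.59. The 3 higher in both pairs, Mt4, Slc39a10 and Gclc, had means of 0.15, 0.13 and 0.13.

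Relatives of the genes were listed for comparison. In both pairs 6 of 19 (31.6%) were lower and 2 (10.5%) higher, against 28.1% and 31.9% of all genes. Klf10, a TGF-beta induced relative of Klf9, gave -0.69 and -1.14. Klf2 gave 0.56 and 1.54 by a probe whose arrays in pair 2 were 2.51 and 0.57, and another probe gave a mean of -0.41. Cebpb, the closest partner of Cebpd, gave -0.66 in pair 2, and its pair 1 spots carried outlier flags and were left out. Klf4 stood at -0.86 and 0.06, and Klf6 at -0.69 and 0.22. The paralogues of Tsc22d3 had smaller ratios than Tsc22d3 itself. Tsc22d2 gave -0.13 and -0.24 and was lower on all 4 arrays, Tsc22d1 gave -0.10 and -0.02, and Tsc22d4 gave 0.14 and -0.02. The paralogues Sgk2 and Sgk3 gave means of -0.04 and -0.08.

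As a check of the labels, the Cdc25a probe gave 0.09 in pair 1 and 0.01 in pair 2, and the Erbb2 probe gave 0.45 and 0.85. The labels do not say whether either probe reads its transgene, so these values check little. Over the 4 arrays, 78.5% to 92.2% of spots were well above background in green and 82.7% to 87.9% in red, with 9 to 87 outlier spots. Ratios of the arrays correlated at 0.65 and 0.76 within the pairs and at 0.21 to 0.37 between them, across genes.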

How the data were processed

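RNA of 4 tumours was measured on 4 arrays. Per the labels' protocols, total RNA was amplified linearly with oligo-dT primers and dye-labelled. The scanner files deposited by the authors hold spot intensities, flags and log10 ratios. The submitters' processing notes name Feature Extraction 7.2 and the file headers 7.5.1. The authors' deposited value table is on a natural log scale, found by its slope of 2.27 to 2.29 against the scanner's log10 ratio. Its normalization is unknown, and it was an alternative only.

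Intensities were background-corrected (normexp, offset 50), normalized by loess within arrays and turned to Cdc25a;neu over neu. Flagged and control spots were left out. Kept were probes well above background in either channel on 2 or more arrays, and the brightest stood for its gene, a probe named by the rule first. Of 41174 probes 37176 were kept. A pair was the replicate (n = 2), tested with limma 3.58.1 (R 4.3.3). The files name no genome build. With 1 array a slide, no slide batch could be examined. Tumour levels are channel values after Aquantile scaling. Named were all probes of the 10 genes, up to 6 genes a list by mean ratio in size, and the 5 nearest profiles to Tsc22d3 and Nr3c1. Some genes of these lists are not reported here. The genes and lists were chosen with earlier results of these data known. Alternatives covered background, normalization, filter, probe choice and left-out arrays.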

Additional observations from a re-analysis of the deposited data

Results flagged for a closer look

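The 2 mouse pairs went opposite ways on all their arrays for Cebpd, Mt2, Sgk1 and Mt1, and the difference between the pairs was not tested. The log2 ratio of pair 2 minus that of pair 1 was 2.996 for Cebpd, 2.20 for Mt2 by its accession-matched probe, -0.83 for Sgk1 and 0.79 for Mt1. The dye-swapped arrays of the same pair differed by 0.10 and 0.26 for Cebpd, 0.31 and 0.01 for Mt2, 0.08 and 0.07 for Sgk1, and 0.20 and 0.13 for Mt1. For Cebpd, Mt2 and Mt1 the tumours at both extremes were the 2 Cdc25a;neu tumours, for Mt1 narrowly at the top (10.56 against 10.53 in a neu tumour).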

How the results depend on the processing

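Tsc22d3 (-1.64 to -1.44) and Per1 (-1.14 to -0.67) kept their direction under all 15 alternatives, left-out arrays and pairs included. Klf9 had a negative mean under all 15 (-0.42 to -0.00), but 11 of them moved it by its SD of 0.01 or more. Its upper end was the brighter probe, whose pairs went opposite ways (0.06 and -0.07). The differences between the pairs, added after seeing the data, kept their sign under 13 alternatives, at 2.86 to 3.28 for Cebpd, 2.04 to 2.47 for Mt2, -0.87 to -0.54 for Sgk1 and 0.70 to 1.07 for Mt1, where median centring gave -0.54 and 1.07. The 0 genes passing became 991 with median centring and 911 with 4 arrays and the pair as a random block, which counts technical repeats. The cause of the first was not tested. The other 14 alternatives gave 0, among them separate-channel values per mouse with no replicate block, where the main ratios hold the pairing. Leaving out single arrays gave 0 genes and 3 to 5 genes lower in both pairs, neither of which can be had without a pair. The median of the 8 genes was -0.38 to -0.03 (main -0.08) without an array or a pair. The count lower in both pairs was 5 with the median over probes, and 2 with the brighter Klf9 probe. Without pair 1 the median was -0.15, and without pair 2 -0.38. The number of arrays limits precision.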
